A study of Mus musculus with 6 samples.

Results

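Cells copy their DNA with a set of proteins that act in a fixed order at replication origins, and 58 of the genes that encode them were measured here among 9490 genes with a row of their own. Members were taken by name: the MCM, origin recognition, GINS, clamp loader, primase, replication protein A and DNA polymerase families, together with 15 single genes for loading, licensing, the sliding clamp, Okazaki fragment joining, DNA precursor supply and maintenance of DNA methylation. The rule uses names and no measured value, though it was chosen with earlier results of these data known. Of the 59 mouse genes whose symbol meets the rule, Pole3 has no row of its own and is not analysed here. Of the members, 5 (Polh, Poli, Polk, Poll and Polq) are polymerases of damage bypass or repair rather than of the replication fork, and Mcm8 and Mcm9 act in repair and are no part of the replicative helicase.

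The samples were cultured prostate cancer stem-like cells of the TRAMP mouse. All 6 cultures derive from this model, in which a probasin promoter fragment drives viral T antigens in prostate epithelium, and large T antigen binds and inactivates the retinoblastoma protein. TNE cells (3 arrays) came from prostates of mice with neuroendocrine tumours, at an age the labels do not state, and TPIN cells (3 arrays) came from prostates of mice aged 10 to 11 weeks, the stage of prostatic intraepithelial neoplasia. Both kinds were grown without serum in DMEM F12 with EGF and FGF2, and total RNA was hybridised to 1-colour oligonucleotide arrays. The groups rest on titles and cell type labels, since a description field gives intraepithelial neoplasia even for the TNE samples. Separate mice or cultures are not stated for the replicates, and p-values therefore reflect a spread among samples that could be technical only.

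The labelled cell kinds were set against marker genes. Of 13 neuroendocrine markers, 6 had a row. Of these, 4 (Uchl1, Syt1, Elavl4 and Snap25) were higher in TNE than in TPIN cells, beside 10.3% of all genes tested. The other two did not pass: Eno2 had a difference, TNE minus TPIN, of -0.79 on the log2 scale (adjusted p = 0.110) with all 3 TNE arrays below all 3 TPIN arrays, and Ncam1 had 0.04 with overlapping groups. Luminal epithelial markers had rows for Krt8 (difference -0.33) and Krt18 (-0.66) alone, neither past the threshold. For both, all 3 TNE arrays lay below all 3 TPIN arrays. No basal epithelial marker had a row. Of 8 stem-like markers, 5 had a row, and Kit was higher in TNE cells (difference 2.59, adjusted p = 0.0223). Itga6 (2.42), Cd44 (-1.61), Nes (-1.18) and Aldh1a1 (-0.91) did not pass, and their groups overlapped. Array medians were 8.82 to 9.10 in TNE and 8.98 to 9.03 in TPIN cells on the log2 scale, and arrays correlated at 0.826 to 0.917 within TNE, 0.842 to 0.905 within TPIN and 0.550 to 0.733 between the groups.

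Replication begins when the origin recognition complex marks an origin and Cdc6 and Cdt1 load the MCM helicase, which GINS and Cdc45 then switch on. Primase and polymerase alpha lay down primers, a clamp loader places the PCNA ring, and polymerases delta and epsilon extend the strands while replication protein A covers unwound DNA. Many of these genes are transcribed shortly before and during S phase under E2F factors, which the retinoblastoma protein holds in check.

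Replication genes were expressed at higher levels in TNE than in TPIN cells across most steps of this pathway. By limma, 41 of 58 members (70.7%) were higher in TNE cells at an adjusted p under 0.05, beside 10.3% of all genes tested. None was lower, beside 10.2% of all genes. At an unadjusted p under 0.05 in the same test, 1 member (Pold4) was lower, beside 1786 of all 9490 genes. At that level 48 members were higher, beside 1904 of all genes. The median log2 difference, TNE minus TPIN, was 1.86 over the members and -0.02 over all genes, and the members ranged from -1.24 for Pold4 to 4.02 for Prim1. Members at least 4-fold higher numbered 27, of 333 such genes in all. Positive differences were seen for 55 members and negative ones for Orc3, Polk and Pold4.

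The arrays of the groups stood apart for most members. All 3 TNE arrays lay above all 3 TPIN arrays for 46 members (79.3%), beside 23.3% of all genes, while all 3 TNE arrays lay below for Pold4, and the groups overlapped for 11. The mean over the 58 genes was 10.28, 10.47 and 10.23 in TNE replicates 1 to 3, against 8.26, 9.10 and 8.20 in TPIN replicates 1 to 3. TPIN replicate 2 thus lay nearest to the TNE arrays. The corresponding means over all genes were 8.98, 8.91 and 8.78 in TNE and 8.99, 9.02 and 8.92 in TPIN cells. In these bulk samples, fewer replicating cells and less RNA per cell cannot be told apart.

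**Figure D1:**
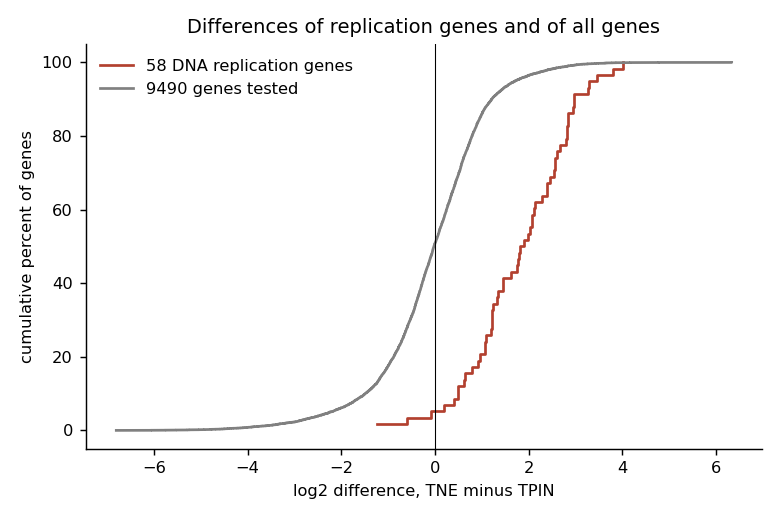
Cumulative percent of genes (vertical axis) up to a given log2 difference, TNE minus TPIN (horizontal axis), for the 58 replication genes and for all 9490 genes tested. The replication genes lie to the right, with a median of 1.86 against -0.02 for all genes.

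Fibroblast markers moved the other way between the same arrays. Of 14 measured, 11 were lower in TNE than in TPIN cells, beside 10.2% of all genes, and none had a positive difference. The list mean was 7.98 to 8.86 in TNE against 11.5 to 12.1 in TPIN arrays. Dcn, which encodes the collagen-binding proteoglycan decorin, averaged 10.91 ± 0.24 in TNE and 13.72 ± 0.06 in TPIN cells (SD, n = 3 each). Col3a1 averaged 9.73 ± 0.47 in TNE and 12.51 ± 0.94 in TPIN cells, and Pdgfra 9.24 ± 1.82 in TNE and 12.61 ± 0.56 in TPIN cells. Among smooth muscle markers 3 of 5 measured were lower in TNE cells, and among endothelial markers 1 of 5 was higher and 2 were lower. Beside these stand 10.3% of all genes called higher and 10.2% called lower. Neither measured immune marker passed. The part of these cell kinds in the replication differences was not tested.

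The count of called members depended on which arrays entered the fit. Without TNE replicate 2 it was 25, and without TPIN replicate 1 it was 27, while all genes called higher fell to 3.76% and 4.07% in those fits. The other omissions gave 34 to 42 members, beside 5.66% to 13.8% of all genes called higher. No omission gave a lower member, and 24 of the 41 kept their call whichever array was left out.

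Promoter sequence of RefSeq (GRCm38.p6), from 250 bases before to 50 after the transcription start, was available for 48 of the members. It was searched on both strands for TTTCCCGC, TTTCGCGC, TTTGCCGC and TTTGGCGC, which are spellings of the E2F recognition sequence, chosen with the calls known. These letters were present for 19 of 48 members (39.6%), against 4.87% of 7474 genes tested that have a window and 2.61% of all 27025 genes of the promoter table. Without the first T, a shorter form that every longer match contains, the shares were 62.5% of members, 19.2% of genes tested and 10.9% of the table. Matches are a description of the sequence and do not show binding.

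The full windows of 4 members are printed 5′ to 3′ along the gene, because they set 2 members with large rises beside 2 whose differences were below 0. Capitals mark the E2F letters or their reverse complement. Pclaf, the PCNA-associated factor, was 3.80 higher in TNE cells on the log2 scale and has 1 match, and Mcm3, a subunit of the replicative helicase, was 3.46 higher and has 2. Orc3, an origin recognition subunit, has 1 match and a difference of -0.09, and Pold4, the smallest polymerase delta subunit, has none and a difference of -1.24.
Pclaf (chr9:65890073-65890372, plus strand): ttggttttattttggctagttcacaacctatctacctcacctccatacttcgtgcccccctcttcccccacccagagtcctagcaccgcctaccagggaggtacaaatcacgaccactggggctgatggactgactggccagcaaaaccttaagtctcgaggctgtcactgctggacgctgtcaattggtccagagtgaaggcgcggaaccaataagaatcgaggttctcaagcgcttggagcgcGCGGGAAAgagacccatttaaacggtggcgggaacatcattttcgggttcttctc
Mcm3 (chr1:20820263-20820562, minus strand): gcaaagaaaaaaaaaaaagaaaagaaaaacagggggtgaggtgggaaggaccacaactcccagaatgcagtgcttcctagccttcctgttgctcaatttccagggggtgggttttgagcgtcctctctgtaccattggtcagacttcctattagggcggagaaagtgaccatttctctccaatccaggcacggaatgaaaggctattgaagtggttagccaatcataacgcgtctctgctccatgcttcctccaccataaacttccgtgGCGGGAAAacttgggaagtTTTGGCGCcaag
Orc3 (chr4:34614893-34615192, minus strand): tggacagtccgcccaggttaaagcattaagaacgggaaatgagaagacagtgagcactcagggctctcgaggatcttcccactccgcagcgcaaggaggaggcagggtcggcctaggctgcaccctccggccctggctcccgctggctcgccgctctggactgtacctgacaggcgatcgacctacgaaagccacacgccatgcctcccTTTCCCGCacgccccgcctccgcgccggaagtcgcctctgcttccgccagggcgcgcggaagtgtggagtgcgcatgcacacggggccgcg
Pold4 (chr19:4231643-4231942, plus strand): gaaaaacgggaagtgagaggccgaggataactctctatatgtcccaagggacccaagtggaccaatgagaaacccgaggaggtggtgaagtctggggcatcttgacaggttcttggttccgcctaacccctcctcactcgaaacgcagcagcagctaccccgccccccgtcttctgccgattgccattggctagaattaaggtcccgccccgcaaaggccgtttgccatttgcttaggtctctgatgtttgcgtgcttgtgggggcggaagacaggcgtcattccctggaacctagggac

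Stretches of 60 bases are printed for genes of different steps, picked because they hold a match, so the likeness of the marked letters follows from the search. Cdc6 loads the helicase, Mcm5 is a subunit of it, Pola1 is the catalytic subunit of polymerase alpha, Rfc3 belongs to the clamp loader, and Uhrf1 directs methylation to newly made DNA. In Mcm5 a match on each strand overlaps, so the capitals run on. Pole4, an accessory polymerase epsilon subunit, carries the same letters as Cdc6 and did not pass the threshold. Prim1, the catalytic primase subunit, holds the form without the first T alone, marked here in capitals.
Cdc6 (chr11:98907987-98908046, plus strand): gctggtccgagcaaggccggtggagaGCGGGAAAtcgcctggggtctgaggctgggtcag
Mcm5 (chr8:75109332-75109391, plus strand): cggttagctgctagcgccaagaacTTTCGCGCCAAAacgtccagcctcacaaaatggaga
Pola1 (chrX:93632260-93632319, minus strand): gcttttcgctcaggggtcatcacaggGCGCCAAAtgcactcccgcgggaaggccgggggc
Rfc3 (chr5:151651180-151651239, minus strand): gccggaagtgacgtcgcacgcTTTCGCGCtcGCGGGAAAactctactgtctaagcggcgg
Uhrf1 (chr17:56304102-56304161, plus strand): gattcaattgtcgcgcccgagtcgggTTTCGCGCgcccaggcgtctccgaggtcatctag
Pole4 (chr6:82652875-82652934, minus strand): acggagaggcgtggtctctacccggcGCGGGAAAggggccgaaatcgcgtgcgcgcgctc
Prim1 (chr10:128015173-128015232, plus strand): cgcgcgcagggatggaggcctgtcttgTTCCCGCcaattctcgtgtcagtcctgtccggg

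Having the letters and being called were compared by counts. Among the members, 15 of 19 with the 8-letter form were higher in TNE cells, with a median difference of 2.28, and 21 of 29 without it were higher, with a median of 1.76. Genes outside the replication set were called higher in 85 of 345 cases (24.6%) with the letters and in 666 of 7081 (9.41%) without them. The 4 members with the letters that did not pass were Orc1, Pold3, Pole4 and Orc3. Of 26 matches in member windows, 18 began within 100 bases of the start, and Mcm3, Mcm5, Mcm6, Mcm7 and Rfc3 had at least 2 in a window. These counts are not of distinct sites. The Pole4 match is counted in both of its overlapping windows, and in Mcm5 and Mcm6 matches on opposite strands overlap. A CCAAT sequence was present for 58.3% of members, against 43.4% of genes tested and 41.1% of the table. The cell cycle element TTTGAA was present for 14.6% of members, against 15.1% and 20.2%.

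**Figure D2:**
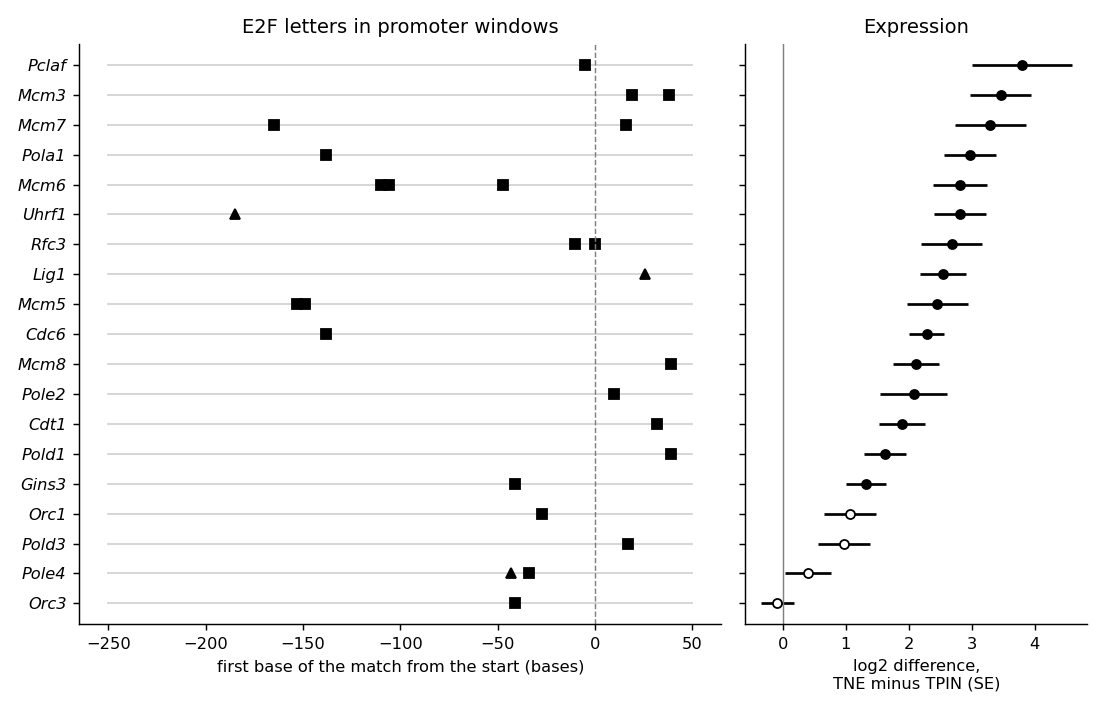
Left, the first base of each 8-letter E2F match relative to the annotated start (bases) in the promoter windows of the 19 members that have one, squares for a gene's first window and triangles for its second. Right, the log2 difference of the same gene, TNE minus TPIN, with its SE (filled: adjusted p under 0.05). Matches lie on both sides of the start, and the genes span differences from -0.09 to 3.80.

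Origin recognition genes differed least among the steps of initiation. Of the 6 subunits, Orc6 and Orc2 rose in TNE cells, and the median difference of the complex was 0.78. Orc6, the subunit least tightly bound to the others, was at 10.47, 10.81 and 10.44 in TNE arrays against 8.97, 9.55 and 9.13 in TPIN arrays, 2.55-fold higher (log2 difference 1.35, SE 0.28, adjusted p = 0.0160). Orc2 was 2.33-fold higher (difference 1.22, SE 0.31, adjusted p = 0.0306). For both, all TNE arrays lay above all TPIN arrays.

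The other 4 origin recognition subunits did not pass. Orc3 was at 9.75, 10.04 and 9.95 in TNE arrays against 10.11, 10.15 and 9.74 in TPIN arrays, a difference of -0.09 with a 95% interval from -0.70 to 0.53. All 3 TNE values of Orc3 lay inside its TPIN range. Orc1, an ATPase subunit, had a difference of 1.07 (adjusted p = 0.0941) with 1 TNE array inside the TPIN range. Orc4 and Orc5 had differences of 0.48 and 0.49, with intervals from -0.14 to 1.11 and from -0.22 to 1.19. The call of Orc6 was lost without TNE replicate 2 or TPIN replicate 1 (adjusted p up to 0.0760), and that of Orc2 without TNE replicate 1 or 2 or TPIN replicate 1 or 2 (up to 0.123).

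Loading and licensing genes all rose in TNE cells. Cdc7, the kinase that fires licensed origins, was at 9.52, 9.92 and 9.92 in TNE arrays against 6.66, 7.42 and 6.78 in TPIN arrays, 7.13-fold higher (difference 2.83, SE 0.31, adjusted p = 0.00176). Cdc6, whose sequence is printed above, was at 9.74, 10.26 and 9.93 in TNE arrays against 7.70, 7.92 and 7.45 in TPIN arrays (difference 2.28, SE 0.28, adjusted p = 0.00260). The groups were separated by 2.10 for Cdc7 and by 1.81 for Cdc6, from the highest TPIN to the lowest TNE array. Gmnn, which encodes geminin, the inhibitor of Cdt1, was 4.23-fold higher (difference 2.08, adjusted p = 0.00370). Cdt1 itself was 3.72-fold higher (difference 1.89, adjusted p = 0.0122), a call lost without TNE replicate 2 or TPIN replicate 1 (adjusted p up to 0.0544).

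**Figure D3:**
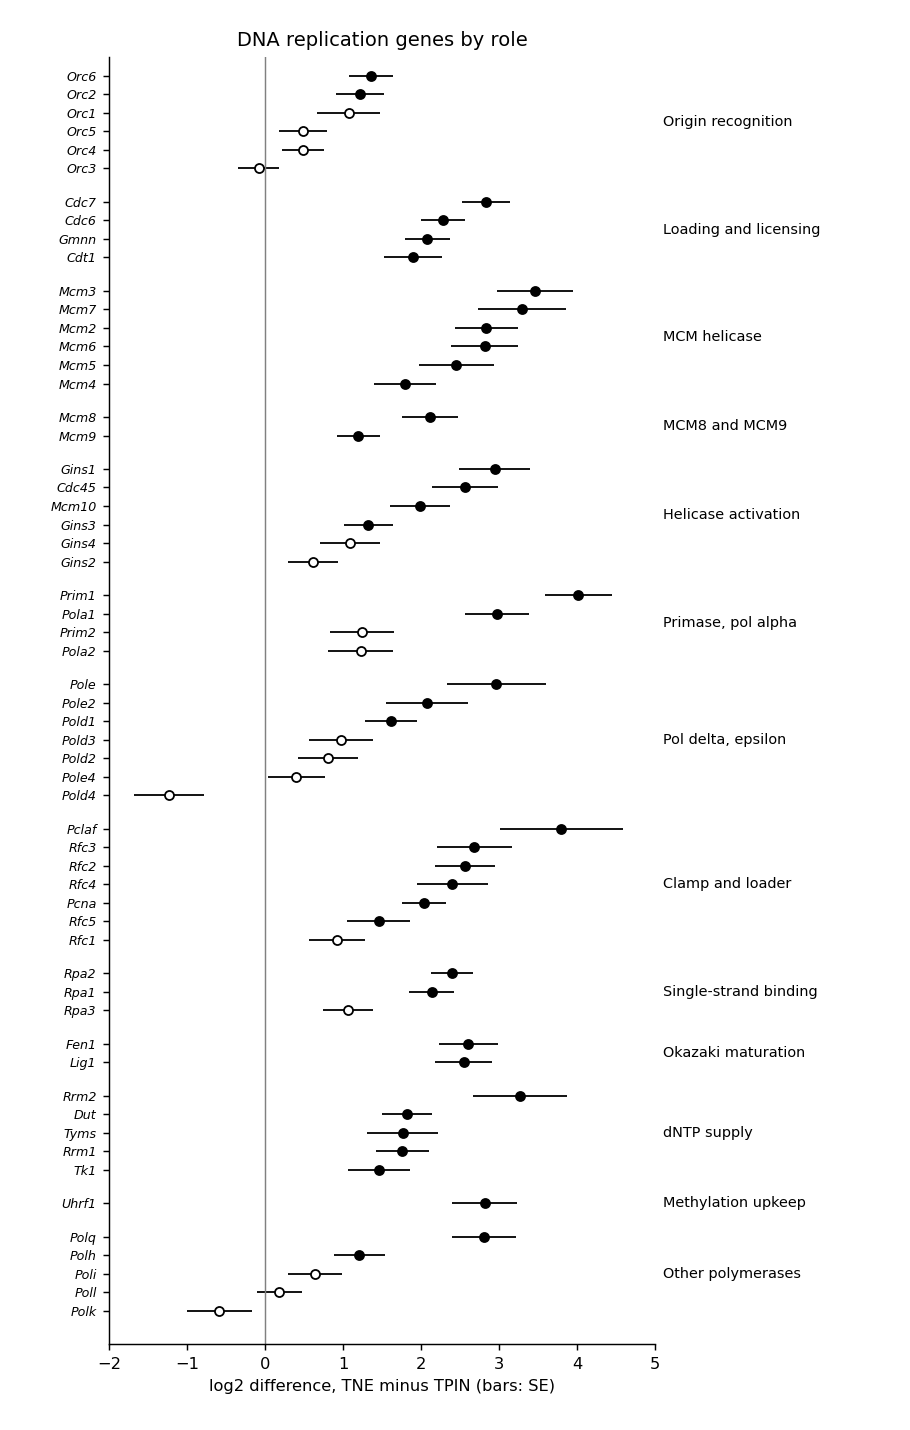
Log2 difference, TNE minus TPIN (horizontal axis), of the 58 members ordered by role, with SE bars and filled points for an adjusted p under 0.05. Filled points make up every gene of loading and licensing, the MCM helicase, Okazaki maturation and dNTP supply, and 2 of 6 genes of origin recognition.

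All 6 subunits of the MCM helicase, the ring that unwinds DNA, rose in TNE cells, with a median difference of 2.82. Mcm3 was at 11.21, 11.42 and 11.02 in TNE arrays against 7.11, 8.90 and 7.26 in TPIN arrays, 11.0-fold higher (difference 3.46, SE 0.48, adjusted p = 0.00391). Mcm7 was at 11.86, 12.90 and 11.79 in TNE arrays against 8.71, 10.03 and 7.93 in TPIN arrays, 9.81-fold higher (difference 3.29, SE 0.56, adjusted p = 0.00780). In both, TPIN replicate 2 was the highest TPIN array and remained below every TNE array. Mcm2 and Mcm6 were 7.13-fold and 7.03-fold higher (adjusted p = 0.00421 and 0.00538), and Mcm5 was 5.47-fold higher (adjusted p = 0.0125).

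Mcm4 had the smallest difference of the ring, at 11.14, 11.04 and 10.65 in TNE arrays against 8.84, 9.97 and 8.64 in TPIN arrays, 3.47-fold higher (difference 1.79, SE 0.40, adjusted p = 0.0190). Mcm5 lost its call without TNE replicate 2 (adjusted p = 0.0513), and Mcm4 without that array or TPIN replicate 1 (up to 0.0731). The related repair helicase genes also rose, Mcm8 4.34-fold (difference 2.12, adjusted p = 0.00774) and Mcm9 2.29-fold (difference 1.19, adjusted p = 0.0228). Mcm9 lost its call without TNE replicate 1 or 2 or TPIN replicate 1 or 2 (adjusted p up to 0.0926).

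Factors that switch on the loaded helicase gave 4 of 6 calls. Gins1 was at 8.87, 9.73 and 9.16 in TNE arrays against 5.70, 7.27 and 5.96 in TPIN arrays, 7.68-fold higher (difference 2.94, SE 0.46, adjusted p = 0.00567). Cdc45, which completes the active helicase with MCM and GINS, was at 10.46, 10.85 and 10.85 in TNE arrays against 7.63, 9.09 and 7.75 in TPIN arrays, 5.91-fold higher (difference 2.56, SE 0.42, adjusted p = 0.00687). Neither gene's groups overlapped. Mcm10, an activator of the helicase, was 3.95-fold higher (difference 1.98, adjusted p = 0.0119), and Gins3 was 2.50-fold higher (difference 1.32, adjusted p = 0.0256).

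The other GINS subunits did not pass, with differences of 1.09 for Gins4 (adjusted p = 0.0772) and 0.61 for Gins2 (adjusted p = 0.189). Gins2 was at 9.31, 9.54 and 9.26 in TNE arrays against 8.55, 9.30 and 8.43 in TPIN arrays. Its groups overlapped through TPIN replicate 2. Mcm10 lost its call without TNE replicate 2 (adjusted p = 0.0524), and Gins3 without TNE replicate 1 or 2 or TPIN replicate 1 (up to 0.104).

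Primer synthesis held the largest difference of the set. Prim1, the catalytic primase subunit, was at 10.96, 11.72 and 11.48 in TNE arrays against 6.53, 8.03 and 7.55 in TPIN arrays, 16.2-fold higher (difference 4.02, SE 0.43, adjusted p = 0.00165). Its lowest TNE array lay 2.92 above its highest TPIN array, and it ranked 8 among all genes by size of rise. Prim2, the regulatory subunit of the same enzyme, was at 9.86, 10.40 and 10.21 in TNE arrays against 8.77, 9.72 and 8.26 in TPIN arrays, a difference of 1.24 (adjusted p = 0.0641). The Prim2 groups did not overlap, yet were separated by 0.14.

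In polymerase alpha too, the catalytic subunit passed the threshold and the regulatory subunit did not. Pola1, its catalytic subunit, was at 10.49, 10.59 and 11.05 in TNE arrays against 7.10, 8.56 and 7.55 in TPIN arrays, 7.86-fold higher (difference 2.97, SE 0.41, adjusted p = 0.00380). Pola2, its regulatory subunit, had a difference of 1.22 (adjusted p = 0.0699), with TNE replicate 3 inside the TPIN range.

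**Figure D4:**
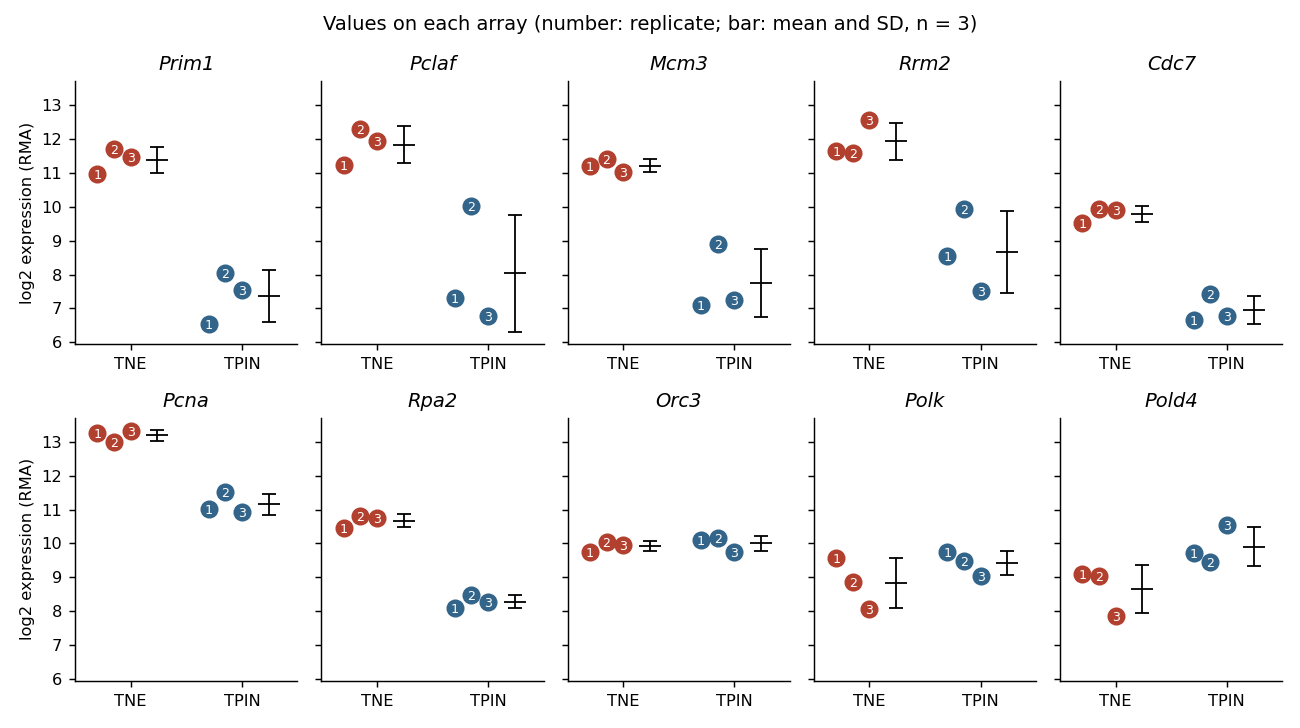
Log2 expression on each array for 10 members, TNE on the left and TPIN on the right of each panel, with the replicate number in the point and the mean and SD (n = 3) beside it. Prim1, Pclaf, Mcm3, Rrm2, Cdc7, Pcna and Rpa2 show separated groups, Orc3 and Polk overlap, and Pold4 lies lower on all 3 TNE arrays.

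Of the polymerases that copy most of the genome, some subunits passed the threshold and others did not. Pole, the catalytic subunit of polymerase epsilon on the leading strand, was at 10.64, 10.26 and 10.80 in TNE arrays against 7.18, 9.16 and 6.47 in TPIN arrays, 7.80-fold higher (difference 2.96, SE 0.64, adjusted p = 0.0171). Pold1, the catalytic subunit of polymerase delta on the lagging strand, was at 9.96, 10.31 and 9.89 in TNE arrays against 8.27, 9.01 and 8.03 in TPIN arrays, 3.07-fold higher (difference 1.62, SE 0.33, adjusted p = 0.0151). Pole2, another epsilon subunit, was 4.22-fold higher (difference 2.08, SE 0.53, adjusted p = 0.0314). All 3 calls were sensitive to single arrays: Pole lost its call without TPIN replicate 1 (adjusted p = 0.0669), Pold1 without TNE replicate 2 or TPIN replicate 1 (up to 0.0662), and Pole2 without any single array other than TPIN replicate 2 (up to 0.109).

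The other 4 subunits of these polymerases did not pass. Pold3 and Pold2 had differences of 0.97 (adjusted p = 0.125) and 0.80 (adjusted p = 0.163), and Pole4, which forms a histone-fold pair with Pole3, had 0.40 (adjusted p = 0.441). In each of these, at least 1 TPIN array lay above the lowest TNE array. Pold4 was at 9.11, 9.03 and 7.85 in TNE arrays against 9.71, 9.45 and 10.55 in TPIN arrays, a difference of -1.24 (SE 0.45, 95% interval -2.27 to -0.20, adjusted p = 0.0831). It was the single member whose TNE arrays all lay below its TPIN arrays, and its difference did not pass the threshold.

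Clamp and clamp loader genes gave 6 of 7 calls with a median difference of 2.40. Pclaf, which binds PCNA at forks, was at 11.24, 12.30 and 11.95 in TNE arrays against 7.32, 10.01 and 6.76 in TPIN arrays, 13.9-fold higher (difference 3.80, SE 0.79, adjusted p = 0.0155). TPIN replicate 2 stood far above the other TPIN arrays, and the SE of Pclaf was the largest of the set. Pcna, the sliding clamp itself, was at 13.26, 13.00 and 13.32 in TNE arrays against 11.02, 11.51 and 10.93 in TPIN arrays, 4.11-fold higher (difference 2.04, SE 0.28, adjusted p = 0.00376). The Pcna arrays varied little within either group.

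Of the clamp loader, Rfc3 was at 10.99, 11.04 and 11.01 in TNE arrays against 7.29, 8.39 and 9.32 in TPIN arrays, 6.41-fold higher (difference 2.68, SE 0.48, adjusted p = 0.00940). Unlike most members, it was highest of the TPIN arrays in replicate 3. Rfc2 and Rfc4 were 5.90-fold and 5.27-fold higher (adjusted p = 0.00498 and 0.0113), and Rfc5 was 2.74-fold higher (adjusted p = 0.0422). Rfc1, the large subunit, had a difference of 0.92 (adjusted p = 0.103), with all TNE arrays above all TPIN arrays. Pclaf lost its call without TNE replicate 2 or TPIN replicate 1 (adjusted p up to 0.0615), and Rfc5 without any single array other than TPIN replicate 2 (up to 0.131).

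Replication protein A, the trimer that coats unwound DNA, rose in its larger subunits. Rpa2 was at 10.46, 10.82 and 10.74 in TNE arrays against 8.10, 8.49 and 8.26 in TPIN arrays, 5.25-fold higher (difference 2.39, SE 0.27, adjusted p = 0.00179). Rpa1 was at 10.98, 11.24 and 10.72 in TNE arrays against 8.53, 9.17 and 8.85 in TPIN arrays, 4.38-fold higher (difference 2.13, SE 0.29, adjusted p = 0.00374). The groups were separated by 1.97 for Rpa2 and by 1.56 for Rpa1. Rpa3, the smallest subunit, had a difference of 1.06 (adjusted p = 0.0538), and its groups did not overlap either.

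Joining of Okazaki fragments was represented by Fen1, the flap nuclease, and Lig1, the ligase. Fen1 was at 10.82, 11.00 and 9.80 in TNE arrays against 7.78, 8.25 and 7.77 in TPIN arrays, 6.08-fold higher (difference 2.60, SE 0.38, adjusted p = 0.00443). Lig1 was at 11.11, 11.37 and 11.18 in TNE arrays against 7.95, 9.23 and 8.85 in TPIN arrays, 5.84-fold higher (difference 2.55, SE 0.37, adjusted p = 0.00438). Neither lost its call when any single array was left out. Uhrf1, which reads hemimethylated DNA behind the fork, was 7.02-fold higher (difference 2.81, SE 0.42, adjusted p = 0.00486).

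All 5 genes of deoxynucleotide supply rose in TNE cells. Rrm2, the S-phase subunit of ribonucleotide reductase, was at 11.66, 11.58 and 12.56 in TNE arrays against 8.54, 9.93 and 7.52 in TPIN arrays, 9.64-fold higher (difference 3.27, SE 0.60, adjusted p = 0.00985). Rrm1, its large subunit, was at 12.28, 12.64 and 12.50 in TNE arrays against 10.53, 11.32 and 10.29 in TPIN arrays, 3.39-fold higher (difference 1.76, SE 0.34, adjusted p = 0.0114). TPIN replicate 2 was again the highest TPIN array for both. Dut, which removes dUTP, was 3.53-fold higher (adjusted p = 0.00919), Tyms, thymidylate synthase, 3.40-fold (adjusted p = 0.0327), and Tk1, thymidine kinase of the salvage route, 2.74-fold (adjusted p = 0.0384).

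Within that group, Rrm1 lost its call without TNE replicate 2 (adjusted p = 0.0521). Tyms lost it without TNE replicate 2 or 3 or TPIN replicate 1 (up to 0.105), and Tk1 without TNE replicate 1 or 2 or TPIN replicate 1 or 3 (up to 0.133).

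Repair and bypass polymerases were mixed. Polq, which joins broken ends through short homologies, was at 9.19, 9.65 and 10.19 in TNE arrays against 6.55, 7.59 and 6.49 in TPIN arrays, 6.98-fold higher (difference 2.80, SE 0.41, adjusted p = 0.00449). Polh, which copies past ultraviolet damage, was 2.31-fold higher (difference 1.21, adjusted p = 0.0374), a call lost without TNE replicate 1 or 2 or TPIN replicate 1 or 3 (up to 0.139). Poli, Poll and Polk did not pass, with differences of 0.64 (adjusted p = 0.207), 0.18 (adjusted p = 0.651) and -0.59 (adjusted p = 0.323). Polk, another bypass polymerase, was at 9.56, 8.87 and 8.06 in TNE arrays against 9.74, 9.49 and 9.03 in TPIN arrays, with a 95% interval of the difference from -1.56 to 0.38. Its groups overlapped.

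**Figure D5:**
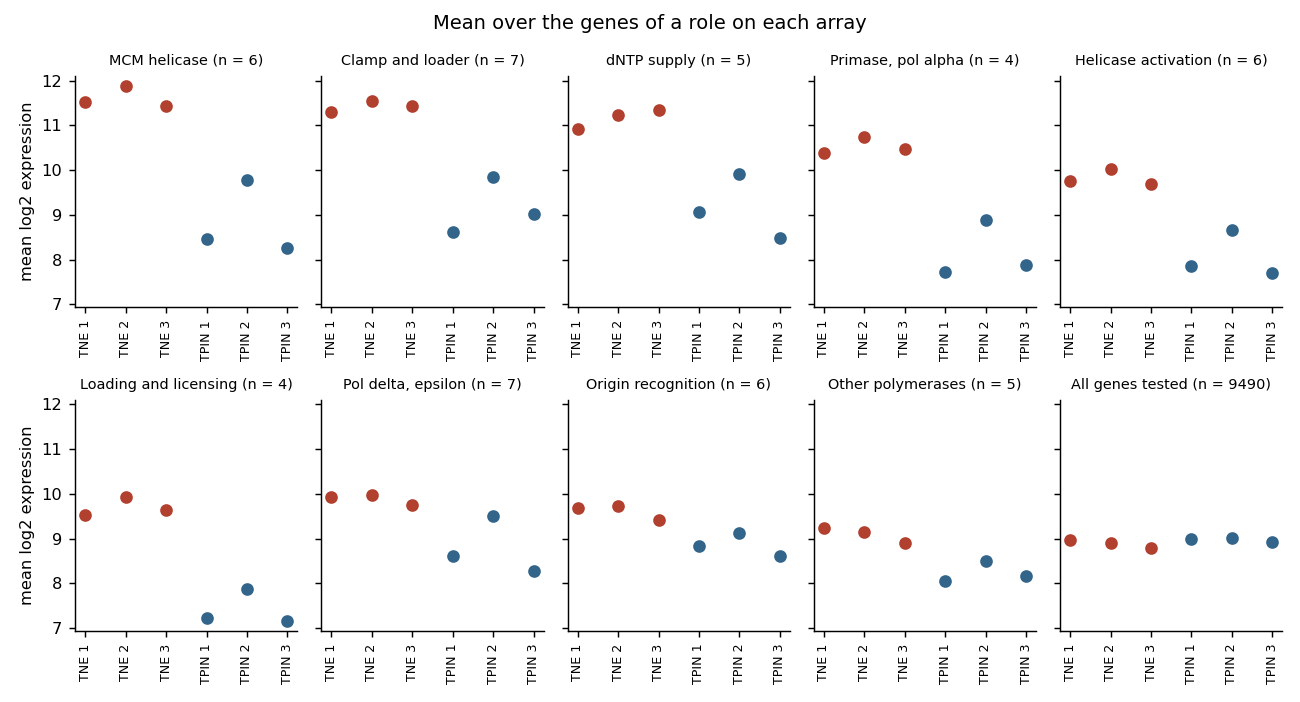
Mean log2 expression (vertical axis) over the genes of each role on each array, TNE replicates on the left and TPIN replicates on the right, with all genes tested in the last panel. In each role shown the 3 TNE arrays lie above the 3 TPIN arrays, TPIN replicate 2 is the highest TPIN array, and the means over all genes stay between 8.78 and 9.02.

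The estimated differences varied among subunits of a complex, and no contrast between subunits was tested. For each of 11 complexes the gap between the subunit of largest and of smallest difference was taken within every array, a description of pairs picked by their values. The Prim1 minus Prim2 gap was 1.10, 1.32 and 1.27 in TNE arrays against -2.24, -1.69 and -0.71 in TPIN arrays, a change of 2.78. For polymerase delta the Pold1 minus Pold4 gap changed by 2.86, for polymerase epsilon the Pole minus Pole4 gap by 2.57, and for GINS the Gins1 minus Gins2 gap by 2.33. The smallest change was 0.92 for Mcm8 minus Mcm9, where the arrays of the groups overlapped. In the other 10 complexes they did not. Picking each pair by its differences makes the change positive and favours such separation, so this count is no test of unequal subunits.

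The spread of the members also differed between the groups, with no test made. The SD over arrays was larger in TPIN cells for 48 of 58 members (82.8%), against 55.4% of all genes, and the median SD was 0.26 in TNE and 0.61 in TPIN cells, against 0.33 and 0.39 over all genes. TPIN replicate 2 was the highest TPIN array for 47 members (81.0%), against 30.2% of all genes. In the fit without this array, the median member difference was 2.21, 42 members were called higher, and 39 of these were among the 41 of the full fit. Of all genes, 5.66% were called higher in that fit.

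Other genes of the pathway, from lists chosen with earlier results known, gave the following counts. Beside the counts here and in the next paragraph stand 10.3% of all genes called higher and 10.2% called lower. Of 23 measured fork and initiation factors, 20 rose and none had a negative difference, with a median of 1.94. Dna2, a nuclease and helicase of flap processing, was 8.81-fold higher (difference 3.14, SE 0.30, adjusted p = 0.00113), and Clspn, which encodes the checkpoint adaptor claspin, was 5.75-fold higher (adjusted p = 0.00328). Timeless, of the fork protection complex, and Donson, a fork protein, had differences of 1.99 (adjusted p = 0.00316) and 1.94 (adjusted p = 0.00443). Replication-coupled chromatin genes rose in 10 of 11 cases, with a median of 2.23. Among them were Mms22l of fork repair (difference 2.87, adjusted p = 0.00328), Nasp, a histone chaperone (2.83, adjusted p = 0.00556), Chaf1a of chromatin assembly (2.09, adjusted p = 0.00337) and Slbp, which binds histone mRNA stem loops (1.88, adjusted p = 0.00483).

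Broader metabolic and regulatory lists showed smaller medians. Of 23 nucleotide metabolism genes, 10 rose and none fell by limma, with a median of 0.97. At an unadjusted p under 0.05 in the same test, 2 were lower, beside 1786 of all 9490 genes. These were Samhd1 and Dctd, named after their values were seen. Dck, deoxycytidine kinase, was 7.53-fold higher (difference 2.91, adjusted p = 0.00235), and Umps of pyrimidine synthesis was 4.83-fold higher (difference 2.27, adjusted p = 0.00316). Dctpp1 and Shmt1 had differences of 1.74 and 1.86 (adjusted p = 0.00549 and 0.00786). Of 16 S-phase regulators, 9 rose and none fell by limma (0 were lower at an unadjusted p under 0.05), with a median of 1.47. They included Ccne2, cyclin E2 (difference 3.06, adjusted p = 0.0110), Lin9 and Mybl2 of the MuvB and B-Myb complex (2.24 and 2.05, adjusted p = 0.00864 and 0.00984) and Rbl1, which encodes a retinoblastoma relative (1.71, adjusted p = 0.0151). The E2F genes measured in this list are named after their values were seen, because the family reads the promoter letters above. E2f8 was higher in TNE cells (difference 1.55, adjusted p = 0.0461). E2f7 (1.04, adjusted p = 0.0888), E2f3 (0.84, adjusted p = 0.0896) and E2f1 (0.35, adjusted p = 0.360) did not pass. The list mixes activators and inhibitors, and 2 more genes are named after their values were seen. Cdkn1b, which encodes an inhibitor of cyclin-dependent kinases, was among those that rose (difference 2.21, adjusted p = 0.0373). Ccnd1, cyclin D1, had the list's only negative difference (-1.42, adjusted p = 0.294).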

How the data were processed

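The authors deposited log2 values summarised by RMA, according to the submitters' processing notes. Not given in the sources used here are the RMA version and the selection of the 10361 rows. RMA shares a distribution among arrays and narrows differences near background, and without detection calls, absence cannot be read from low values. GEO's platform annotation named 1 gene for 9496 rows, more than 1 for 374 and no gene for 491, and 9486 rows matched RefSeq (GRCm38.p6) by Entrez identifier with no symbol changed. For 6 genes with more than 1 row, none a member, the row of highest mean was kept.

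The groups were compared over all 9490 genes with limma 3.58.1 in R 4.3.3 (empirical Bayes, two-sided, TNE minus TPIN), with Benjamini-Hochberg adjustment and a threshold of 0.05. Folds are on the RMA scale, and gaps with no test are descriptions. Replicate numbers follow the order of the series and pair nothing. The text names every member, up to 4 genes of smallest p in each other pathway list, and the 3 fibroblast markers of highest mean. It also names every measured neuroendocrine, luminal epithelial and stem-like marker. Members, lists and promoter letters were chosen with earlier results of these data known. The comparison was tested on simulated data with known changes. It recovered 5.3% of log2 changes of 1, 56.8% of changes of 2, 80.1% of changes of 3 and 91% of changes of 4. Of its calls, 4.54% were false. A member with a difference near 1 that did not pass is therefore not shown to be unchanged. The number of arrays limits the precision. No 2 arrays shared more than 0.106% of their values. Alternatives covered each array left out, normalization, low values, rows per gene, variance model, array weights and threshold.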

Additional observations from a re-analysis of the deposited data

How the results depend on the processing

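No member changed direction under any of the 14 alternatives run, and none was called lower in any. The stricter threshold, leaving out low genes, another rule for rows, added rows and another variance model leave every member difference as it was. Direction could not change in those settings, and the stricter threshold could add no call, so they are no check of direction. Leaving out 1 array gave 25 to 42 members higher in TNE than in TPIN cells, against 41 with all arrays, and 832 to 2596 genes past the threshold, against 1941. The lowest of both counts came without TNE replicate 2 and the next lowest without TPIN replicate 1 (27 members, 936 genes), and 1115 genes passed without TPIN replicate 2. At an adjusted p under 0.01, 23 members and 642 genes passed. Array weights gave 4267 genes and 45 members. Normalizing again, subtracting medians, leaving out low genes (53 members tested), another rule for rows, added rows and another variance model gave 39 to 43 members and 1727 to 2096 genes. The cause of these shifts was not tested. No paired analysis was possible because the replicate numbers follow the order of the series and the labels pair no samples. The 3 arrays per group limit the precision of members with differences near 1.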
